A study of Sus scrofa with 11 samples.

Results

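Of 43753 probes on a pig microarray, 4354 (9.95%) gave a signal well above background in exactly 1 or 2 of 11 single blastocysts. These sporadically detected probes were chosen by their detection flags over all 11 arrays, without regard to the groups. The flag is a yes or no call by the scanner software that a spot was clearly brighter than the background around it. Of them, 2686 were detected in 1 blastocyst alone and 1668 in 2 blastocysts. The counts of arrays follow from the rule and are given as a description.

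Each array held the RNA of 1 day 7 blastocyst (n = 11), and no embryos were pooled. All blastocysts came from abattoir pig ovaries, from oocytes that were stained for 60 min with Brilliant Cresyl Blue (BCB), matured in vitro for 44 h, fertilised by intracytoplasmic sperm injection (ICSI) and cultured for 7 days. ICSI BCB+ blastocysts (n = 4) came from oocytes that kept the dye, ICSI BCB- blastocysts (n = 3) from oocytes that lost it, and mICSI BCB- blastocysts (n = 4) from BCB- oocytes that received isolated mitochondria together with the sperm. The supplemented mitochondria came, per the methods, from BCB+ metaphase II oocytes of the same ovary pair. One label field of the mICSI samples calls their oocytes BCB+, and every other field calls them BCB-, which was used. The comparison of the groups asks whether oocyte quality, or mitochondrial supplementation of poor oocytes, alters gene expression in the blastocyst. Beyond 1 blastocyst per array nothing in the labels says which embryos shared an ovary pair or a culture day, so the p-values measure the spread between these embryos.

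A blastocyst consists of trophectoderm, which contributes to the placenta, and of an inner cell mass, which gives rise to the fetus. BCB is broken down by glucose-6-phosphate dehydrogenase, an enzyme that is active in growing oocytes, and oocytes that have finished growth keep the blue colour and are more often competent to develop. The RNA of 1 blastocyst is too little for an array and was first copied in repeated rounds of in vitro transcription. In a whole embryo, fewer cells that express a transcript and less of that transcript per cell cannot be told apart. The tables used here name a probe only by an array identifier and pair it with neither a gene nor a sequence, so the probes are given by identifier and the embryo label was not checked against marker genes.

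Detection was high and uneven between arrays. Between 25996 and 31591 probes were detected per array, or 59.4% to 72.2% of the 43753, with a median of 69.2%. The lowest value belonged to mICSI BCB- replicate 4 and the next, 62.9%, to mICSI BCB- replicate 2. The 75th percentile of the signal ran from 243 units in mICSI BCB- replicate 4 to 1138 units in ICSI BCB- replicate 1. The faintest detected spot lay between 15.5 and 29.3 units. ICSI BCB+ blastocysts were hybridised on slide 1 (replicates 1 and 2) and slide 2 (replicates 3 and 4), ICSI BCB- blastocysts on slide 2 (replicates 1 and 2) and slide 3 (replicate 3), and mICSI BCB- blastocysts on slide 1 (replicates 1 and 2) and slide 3 (replicates 3 and 4), so that each pair of groups shared 1 slide.

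The number of sporadic probes was far from what equal chances for all probes would give. Had every probe been detected independently at the rate of each array, 3.38 probes would have been detected on 1 array and 36.6 on 2 arrays, against the 2686 and 1668 observed. The same calculation gave 0.141 probes on no array, where 6250 were found, and 22315 probes were detected on all 11 arrays. Just outside the rule, 1288 probes were detected on 3 arrays. Where detected, the median signal was 40.1 units for probes on 1 array, 39.8 units for probes on 2 arrays and 41.5 units for probes on 3 arrays, against 420 units for probes on all 11. On arrays that did not detect the probe, the median signal was 6.42 units for probes on 1 array, 8.47 units for probes on 2 arrays and 9.94 units for probes on 3 arrays, and it was 5.02 units for probes that no array detected.

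A second flag of the scanner software, which calls a signal positive and significant against the background, is easier to pass. By that flag, probes detected on 1 array were positive on a median of 7 arrays, those detected on 2 arrays on a median of 9 arrays, and those never detected on a median of 4 arrays. It was raised on all 11 arrays for 579 (21.6%) of the 1-array probes and 547 (32.8%) of the 2-array probes, and for 633 (10.1%) of the never detected probes. By contrast, 259 (9.64%) of the 1-array probes carried it on 1 array only, and 99 (5.94%) of the 2-array probes on 2 arrays only. Most sporadic probes thus carried the easier flag on more arrays than the stricter one.

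Negative control and dark corner spots, which carry no pig sequence, gave the background for such detections. Of 153 negative control spots, 8 (5.23%) were detected on 1 array and none on 2 arrays, with signals of 21.9 to 74.4 units. Of 604 dark corner spots, 3 were detected, each on 1 array. Over all 43753 probes the share detected on 1 or 2 arrays was 9.95%, but this total includes 33149 probes detected on 3 or more arrays. Among the 10604 probes detected on 0, 1 or 2 arrays the share was 41.1%, with 2686 probes on 1 array and 1668 on 2 arrays. An adenoviral control probe printed in 32 spots per array was detected in all 32 spots on 4 arrays, with median signals of 63.5 to 200 units, and in 0 to 5 spots on the other 7 arrays, with median signals of 12.6 to 21.4 units. Those 4 arrays, ICSI BCB+ replicates 2 and 4, ICSI BCB- replicate 3 and mICSI BCB- replicate 4, lay on all 3 slides and in all 3 groups. A fainter control in 10 spots per array was detected in 0 to 10 of them. Of 429 such sets of identical spots on 1 array, from 39 control probes, 62 (14.5%) were detected in part, so that equal sequences on 1 array fell on both sides of the flag.

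Fewer sporadic probes came from mICSI BCB- blastocysts than from the other blastocysts, with 1 exception. The numbers contributed, counting a probe once for each array that detected it, were 635, 672, 558 and 489 in ICSI BCB+ replicates 1 to 4, 814, 654 and 678 in ICSI BCB- replicates 1 to 3, and 370, 287, 597 and 268 in mICSI BCB- replicates 1 to 4. The mICSI BCB- range overlapped that of ICSI BCB+ blastocysts through replicate 3 alone and did not reach that of ICSI BCB- blastocysts. The means were 588.5 ± 81.6 (SD, n = 4) for ICSI BCB+, 715 ± 86.3 (SD, n = 3) for ICSI BCB- and 380.5 ± 151 (SD, n = 4) for mICSI BCB- blastocysts. None of the differences passed the threshold of 0.05 in a two-sided exact permutation test. The difference was 127 probes for ICSI BCB- minus ICSI BCB+ (exact p = 0.114), -208 for mICSI BCB- minus ICSI BCB+ (exact p = 0.0857) and -335 for mICSI BCB- minus ICSI BCB- blastocysts (exact p = 0.0571), each with an adjusted p of 0.114 over the 3 comparisons. The smallest p the group sizes allow was 0.0286.

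The rule for detection, the slide and the faint detections moved these differences. With a spot called detected above the 99th percentile of the negative controls of its array, the first difference turned to -262 (exact p = 0.314), the second was -443 (exact p = 0.0857) and the third -181 (exact p = 0.257). With slide as a block, only the 1 slide that each pair of groups shared remains, with 6, 6 and 3 assignments of the labels. The difference was then 210.5 probes for ICSI BCB- minus ICSI BCB+ (exact p = 0.333) and -325 for mICSI BCB- minus ICSI BCB+ (exact p = 0.333). For mICSI BCB- minus ICSI BCB- it was -245.5 (exact p = 0.667). So few assignments cannot give a p under 0.05, whatever the difference. When only detections at 2 or more times the faintest detected signal of the array were counted, mICSI BCB- minus ICSI BCB+ came to -44.8 probes (exact p = 0.457), ICSI BCB- minus ICSI BCB+ to 151 (exact p = 0.0571) and mICSI BCB- minus ICSI BCB- to -196 (exact p = 0.0571). Without ICSI BCB- replicate 1, the difference between the ICSI groups was 77.5 probes (exact p = 0.267). Without mICSI BCB- replicate 3, mICSI BCB- minus ICSI BCB+ came to -280 probes, with an exact p of 0.0286 and an adjusted p of 0.0857.

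Arrays that detected more probes contributed more sporadic ones. Over the 11 arrays, the number contributed correlated with the percentage of probes detected, with Pearson's r of 0.913 (permutation p = 1e-05, the smallest the resamples can give, adjusted p = 3e-05 over 3 measures) and Spearman's rho of 0.964 (permutation p = 4e-05, adjusted p = 0.00012). Without mICSI BCB- replicates 2 and 4, the arrays farthest from the median detection, r was 0.922. Sporadic detections are a part of all detections, between 1.03% and 2.58% of them per array, so both measures share the array. With the 75th percentile of the signal r was 0.724 (permutation p = 0.0099, adjusted p = 0.0148) and rho 0.60 (permutation p = 0.0552, adjusted p = 0.0828), and r was 0.638 without ICSI BCB- replicates 1 and 2. With the faintest detected signal r was 0.370 (permutation p = 0.26, adjusted p = 0.26) and rho 0.127 (permutation p = 0.716, adjusted p = 0.716), and without ICSI BCB- replicates 1 and 2 r turned to -0.30. The part of detection rate in the difference between groups was not tested beyond the comparison that follows.

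The numbers were set against those expected from each array's detection rate, by dividing the 2686 and 1668 probes over arrays and pairs of arrays in proportion to the odds of detection. Relative to this, the 1-array probes amounted to 1.14, 1.08, 0.873 and 0.920 times the expected number in ICSI BCB+ replicates 1 to 4, to 1.23, 1.24 and 1.11 times in ICSI BCB- replicates 1 to 3, and to 0.646, 0.740, 0.994 and 0.833 times in mICSI BCB- replicates 1 to 4. All 3 ICSI BCB- blastocysts thus lay above and all 4 mICSI BCB- blastocysts below this expectation, while ICSI BCB+ blastocysts lay on both sides. The odds were taken over all 43753 probes, 22315 of which every array detected. Odds over the other probes may place the blastocysts differently, which was not tested, here or for the pairs of arrays below. By group, 1019 probes were detected in 1 ICSI BCB+ blastocyst only where 1013 were expected, 980 in 1 ICSI BCB- blastocyst only where 825 were expected, and 687 in 1 mICSI BCB- blastocyst only where 848 were expected. For the whole contribution, the mean ratio of observed to expected was 1.03 ± 0.101 (SD, n = 4), 1.17 ± 0.085 (SD, n = 3) and 0.777 ± 0.169 (SD, n = 4) in the 3 groups. The exact p values for this ratio were 0.171 for ICSI BCB- against ICSI BCB+, 0.0857 for mICSI BCB- against ICSI BCB+ and 0.0571 for mICSI BCB- against ICSI BCB-.

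Sporadic signals were mostly faint. Over the 6022 detections, the median signal was 39.9 units and the 90th percentile 168 units, and 2279 detections (37.8%) lay under 1.5 times the faintest detected signal of their array. At the other end were 403 detections (6.69%) over 10 times that signal and 77 (1.28%) above the 75th percentile of all probes on the array. None was saturated. The probe was often not far from detection elsewhere, since for 776 probes (17.8%) the signal on an array that did not detect it exceeded the faintest detected signal of that array. When each signal was divided by the faintest detected signal of its array, the weakest detection was a median 2.47 times the highest undetected value of the same probe. This ratio was under 1.5 for 1204 probes (27.7%) and over 10 for 605 probes (13.9%), which stood out clearly in 1 or 2 embryos.

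The share of faint detections differed between arrays. Detections within 1.5 times of the faintest signal made up 34.8%, 47.3%, 57.9% and 50.5% in ICSI BCB+ replicates 1 to 4, 26.0%, 31.2% and 36.0% in ICSI BCB- replicates 1 to 3, and 27.8%, 34.1%, 35.0% and 37.3% in mICSI BCB- replicates 1 to 4. The ICSI BCB+ arrays other than replicate 1 had the largest shares. In units, the median contributed signal was 30.2 to 31.1 in ICSI BCB+, 74.8, 59.6 and 30.8 in ICSI BCB- replicates 1 to 3, and 31.4 to 46.7 in mICSI BCB- blastocysts. The high values of ICSI BCB- replicates 1 and 2 came with the highest 75th percentiles, 1138 and 879 units.

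Scaled to the 75th percentile of the array, the contributed signals were highest in mICSI BCB- blastocysts, without passing the threshold. No detection lies below the faintest detected signal of its array, so a low 75th percentile raises the lowest value this ratio can take. By group, that faintest signal averaged 19.6 units for mICSI BCB-, 19.4 for ICSI BCB+ and 24.7 for ICSI BCB-. The 75th percentile averaged 409, 486 and 829 units in the same order. The ratio thus cannot separate brighter sporadic signals from dimmer arrays. The median log2 ratio was -3.97 ± 0.26 (SD, n = 4) in ICSI BCB+, -3.92 ± 0.03 (SD, n = 3) in ICSI BCB- and -3.34 ± 0.41 (SD, n = 4) in mICSI BCB- blastocysts. The log2 difference was 0.05 for ICSI BCB- minus ICSI BCB+ (exact p = 0.83, adjusted p = 0.83), 0.63 for mICSI BCB- minus ICSI BCB+ (exact p = 0.0571, adjusted p = 0.129) and 0.57 for mICSI BCB- minus ICSI BCB- blastocysts (exact p = 0.0857, adjusted p = 0.129). The sizes and the ranking of the groups depended on the scaling. Divided by the faintest detected signal of the array, the median contributed signal was highest for ICSI BCB-, with a mean of 2.18 ± 0.34 (SD, n = 3). It averaged 1.95 ± 0.23 (SD, n = 4) for mICSI BCB- and 1.61 ± 0.27 (SD, n = 4) for ICSI BCB+. That measure was not tested between groups. Scaled to the median of the detected probes, the 3 differences were 0.12 (exact p = 0.4), 0.35 (exact p = 0.0571) and 0.23 (exact p = 0.0857), and on the unscaled log2 signals they were 0.75 (exact p = 0.0857), 0.31 (exact p = 0.0286, adjusted p = 0.0857) and -0.44 (exact p = 0.286). Without ICSI BCB+ replicate 3 the first was -0.0045 (exact p = 1).

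Bright signals confined by the flag to 1 blastocyst were rare and uneven. Of the 1-array probes, 26 exceeded the 75th percentile of all probes on their array, 7, 0, 1 and 5 of them in ICSI BCB+ replicates 1 to 4, 2, 1 and 0 in ICSI BCB- replicates 1 to 3, and 3, 0, 1 and 6 in mICSI BCB- replicates 1 to 4. ICSI BCB+ replicates 1 and 4 and mICSI BCB- replicate 4 held most of them. The cutoff was not equal, at 373, 494 and 243 units on these arrays and 1138 units in ICSI BCB- replicate 1. With a cutoff of 322 units, mICSI BCB- replicate 2 had 0. The part of the cutoff in these counts was not tested. The brightest was EMPV1_21070, at 5227 units in ICSI BCB+ replicate 1, or 14.0 times the 75th percentile, against 4.11 to 13.6 units on the other 10 arrays. EMPV1_33843 measured 1705 units in mICSI BCB- replicate 4, 7.03 times the 75th percentile of that dim array, and 4.19 to 16.4 units elsewhere. EMPV1_04691 measured 5162 units in ICSI BCB- replicate 1, 4.54 times the 75th percentile, and 6.38 to 20.2 units elsewhere. In each case a single embryo stood apart and the other 10 lay far lower. The second flag, positive and significant, was nevertheless raised on 7 arrays for EMPV1_21070, 9 for EMPV1_33843 and 10 for EMPV1_04691.

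The brightest 1-array probe of each remaining blastocyst was closer to the bulk of the probes. EMPV1_43233 reached 1328 units in mICSI BCB- replicate 1 and EMPV1_09168 reached 1036 units in ICSI BCB+ replicate 4, which were 2.66 and 2.10 times the respective 75th percentiles. EMPV1_26586 reached 767 units in mICSI BCB- replicate 3, EMPV1_10807 reached 584 units in ICSI BCB+ replicate 3 and EMPV1_43321 reached 928 units in ICSI BCB- replicate 2, which were 1.34, 1.06 and 1.06 times that level. The remaining 3 blastocysts had none above their 75th percentile. Their brightest were EMPV1_01986 with 299 units in mICSI BCB- replicate 2, EMPV1_30877 with 488 units in ICSI BCB+ replicate 2 and EMPV1_41925 with 428 units in ICSI BCB- replicate 3, at 0.929, 0.927 and 0.908 times it. On the arrays without detection, these 8 probes stayed between 3.19 and 26.2 units. They differed in the second flag, which was raised on all 11 arrays for EMPV1_10807, EMPV1_43233 and EMPV1_26586, and on 2 arrays for EMPV1_30877, EMPV1_43321 and EMPV1_01986.

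Of the 2-array probes, 1 was above the 75th percentile on both arrays and 49 on 1 array only. The exception, EMPV1_19049, measured 1845 units in ICSI BCB- replicate 1 and 467 units in mICSI BCB- replicate 4, or 1.62 and 1.93 times the 75th percentile, and 3.33 to 7.20 units in the other 9 blastocysts. EMPV1_27627 followed with 320 units in ICSI BCB+ replicate 1 and 840 units in ICSI BCB- replicate 2, against at most 6.51 units elsewhere. EMPV1_25578 measured 537 units in ICSI BCB+ replicate 3 and 390 units in mICSI BCB- replicate 1, against at most 22.0 units elsewhere. The next, EMPV1_36229 and EMPV1_42464, were both detected in mICSI BCB- replicate 3, with 420 and 402 units, and in 1 ICSI BCB+ blastocyst each, with 375 units in replicate 2 and 520 units in replicate 4. All 5 of these probes joined blastocysts of different groups, as did 1154 of all 1668 2-array probes, over 40 of the 55 pairs of arrays. They were picked for their height.

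Within a group, the brightest shared probes were dimmer by their weaker signal relative to the 75th percentile. This follows from the choice, as the 5 highest by that measure all joined different groups. EMPV1_29343 measured 317 units in replicate 2 and 387 units in replicate 3 of the ICSI BCB+ blastocysts and 3.37 to 7.65 units in the other 9 blastocysts. EMPV1_13600 measured 313 units in replicate 1 and 154 units in replicate 3 of the ICSI BCB- blastocysts, 11.6 units in replicate 2, and 3.40 to 13.25 units over all undetected arrays. EMPV1_12882 measured 813 units in replicate 3 and 107 units in replicate 4 of the mICSI BCB- blastocysts, and 7.5 and 4.77 units in replicates 1 and 2. No probe in these examples marked every blastocyst of its group, as 2 arrays cannot cover groups of 3 or 4. Over all 1668 2-array probes, the median ratio between the 2 scaled signals was 1.69, and 1004 (60.2%) agreed within 2-fold while 49 differed over 10-fold.

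Pairs of blastocysts shared between 6 and 71 of the 1668 2-array probes. The most were shared by ICSI BCB- replicate 1 and mICSI BCB- replicate 3, with 71 where 38.6 were expected from the detection rates. ICSI BCB- replicates 1 and 2 shared 70 where 37.6 were expected, and ICSI BCB+ replicates 2 and 3 shared 67 where 34.5 were expected, which was the highest ratio of the 55 pairs at 1.94. ICSI BCB+ replicates 1 and 2 followed with 58 probes where 34.8 were expected. At the other end, ICSI BCB+ replicate 4 and mICSI BCB- replicate 2 shared 6 probes where 23.1 were expected, a ratio of 0.259. Pairs over 1 numbered 20 of 55.

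Summed over the groups, pairs of the same group shared more sporadic probes relative to expectation than pairs of different groups, without passing the threshold after adjustment. The 15 pairs of the same group shared 514 probes against 447.6 expected, a ratio of 1.15, and the 40 pairs of different groups shared 1154 against 1220 expected, a ratio of 0.946. The quotient of the ratios, 1.21, had an exact permutation p of 0.0305, as 352 of 11550 assignments of the 11 arrays to groups were as extreme, and an adjusted p of 0.061 over the tests of group and slide. By the detection rates, the excess lay in the ICSI groups, at 270 probes against 196 expected (1.38) among ICSI BCB+ and 166 against 115 (1.44) among ICSI BCB- blastocysts. By contrast, mICSI BCB- blastocysts shared 78 with each other where 136 were expected, the lowest ratio at 0.573. With the expectation taken from each array's own number of 2-array probes, these ratios were 1.22, 1.06 and 1.02, so the placement of the excess depended on the expectation. The quotient was then 1.19 (exact p = 0.0336). The result rested on several embryos. The quotient was 1.08 without ICSI BCB+ replicate 2 (exact p = 0.479), 1.11 without ICSI BCB+ replicate 3 (exact p = 0.26), 1.21 without ICSI BCB+ replicate 4 (exact p = 0.07), 1.16 without ICSI BCB- replicate 1 (exact p = 0.126), 1.1 without ICSI BCB- replicate 2 (exact p = 0.404) and 1.23 without ICSI BCB- replicate 3 (exact p = 0.0654). Without any 1 of the other 5 arrays the exact p stayed under 0.05.

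Slide was examined in the same way. Pairs on the same slide shared 496 probes against 457 expected and pairs on different slides 1172 against 1211, a quotient of 1.12 that did not pass the threshold (exact p = 0.218, adjusted p = 0.218). With detection by the negative controls, the quotient for slides turned to 0.837 (exact p = 0.554) and that for groups was 1.70 (exact p = 0.0473). The 5 pairs of the same group and slide had the highest ratio, 193 against 147.5 expected or 1.31, while the 10 pairs of the same group on different slides had 321 against 300.1, a ratio of 1.07. Pairs of different groups had ratios of 0.978 on the same slide and 0.934 on different slides. When group labels were exchanged only within slides, the exact p for the groups was 0.0556 over 108 assignments. For the 462 2-array probes whose signals were both at 2 or more times the faintest detected signal, the quotient was 1.16 (exact p = 0.272).

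The picture by pair of groups depended on the expectation. From the detection rates, ICSI BCB+ blastocysts shared 475 probes with ICSI BCB- blastocysts, 1.12 times the expected number, and 320 with mICSI BCB- blastocysts, 0.730 times the expected number. ICSI BCB- and mICSI BCB- blastocysts, both from BCB- oocytes, shared 359, or 1.01 times the expected number. Relative to each array's own number of 2-array probes, which takes out that mICSI BCB- arrays had few of them, these 3 ratios were 0.894, 0.889 and 1.12, so that the first turned to below 1. The ratios within groups were then 1.22 for ICSI BCB+, 1.06 for ICSI BCB- and 1.02 for mICSI BCB- blastocysts. The differences among the 6 ratios were not tested.

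In a fit over all 43753 probes, sporadic probes were called at a lower share than all probes in the comparisons with ICSI BCB+ blastocysts. For mICSI BCB- against ICSI BCB- blastocysts their share was higher. By the rule no sporadic probe was detected in every blastocyst of a group, so these shares only describe the chosen probes. limma was used on quantile normalised log2 signals with a floor of 1 and no filter on dim probes. Under an unadjusted p of 0.01 with a fold change over 2, it called 48 of the 4354 sporadic probes (1.1%) when ICSI BCB- were compared with ICSI BCB+ blastocysts, 35 higher and 13 lower in ICSI BCB-, where 1.87% of all probes were called. For mICSI BCB- against ICSI BCB+ blastocysts it called 23 (0.528%), 11 higher and 12 lower in mICSI BCB-, where 1.34% of all probes were called. For mICSI BCB- against ICSI BCB- blastocysts it called 59 (1.36%), 21 higher and 38 lower in mICSI BCB-, where 0.965% of all probes were called. The 2-array probes made up 34, 20 and 38 of these calls. After Benjamini-Hochberg adjustment at 0.05, limma called 0 sporadic probes in each comparison, against 0.00229%, 0% and 0.00229% of all probes, and at an unadjusted p under 0.05 it had 288, 198 and 315 of them (6.61%, 4.55% and 7.23%), where 9.63%, 7.54% and 7.20% of all probes passed. The methods' t-test also left 0 after adjustment. The comparisons share arrays, and the 2 involving ICSI BCB- blastocysts rest on 3 embryos on that side.

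The calls depended on which arrays were included and on how faint signals were treated. Without ICSI BCB- replicate 1, 2 or 3, the number called between the ICSI groups was 77, 75 and 101, or 1.77%, 1.72% and 2.32% of the sporadic probes, where 1.51%, 1.16% and 2.77% of all probes were called. Of these, 6, 11 and 23 passed the adjusted threshold in limma, out of 7, 16 and 154 among all probes. For mICSI BCB- against ICSI BCB- blastocysts, the same leave-outs gave 76, 89 and 114 calls (1.75%, 2.04% and 2.62%), where 0.965%, 0.827% and 2.27% of all probes were called. Here 6, 11 and 22 passed the adjusted threshold, out of 11, 18 and 98 among all probes, and without mICSI BCB- replicate 3 it was 1 of 6. A probe detected in 2 of 3 ICSI BCB- blastocysts is detected in the whole group once the third is left out. With the normexp background correction, which compresses faint signals, 2, 0 and 1 sporadic probes were called in the 3 comparisons. The share of all probes called with normexp was not set beside these counts.

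EMPV1_34837 had the smallest adjusted p among the sporadic probes. It measured 180 units in replicate 1, 22.5 units in replicate 2 and 60.1 units in replicate 3 of the ICSI BCB- blastocysts, detected in replicates 1 and 3. In all 8 other blastocysts it measured 3.12 to 4.47 units. As no ICSI BCB+ or mICSI BCB- array measured it well above background, only an approximate bound can be given. It is not strict, since the ICSI BCB- mean includes the undetected 22.5 units of replicate 2. Relative to the faintest detected signals of the ICSI BCB+ arrays, taken after quantile normalisation, the ICSI BCB- mean was about 2.26-fold higher. Against mICSI BCB- the figure was about 1.70-fold. The adjusted p in limma was 0.108 against ICSI BCB+ and 0.155 against mICSI BCB-. Both belong to the measured differences and not to these bounds. EMPV1_29287 came next with 26.1, 31.7 and 8.22 units in ICSI BCB- replicates 1 to 3, detected in replicate 2, and 3.16 to 4.51 units in the other 8 blastocysts. No fold can be given for it, and its adjusted p against ICSI BCB+ was 0.171 in limma. Both were singled out after their values were seen. Both also met the rule through detections in ICSI BCB- blastocysts alone. Their separation from the other groups is therefore a description and no independent evidence of a difference.

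The position of the spots moved with sporadic detection on several arrays. Spots of sporadic probes that an array detected had another detected sporadic probe among their 8 neighbouring spots in 11.3%, 11.8%, 14.5% and 15.1% of cases in ICSI BCB+ replicates 1 to 4, in 15.0%, 17.3% and 17.1% in ICSI BCB- replicates 1 to 3, and in 9.46%, 11.8%, 16.4% and 16.4% in mICSI BCB- replicates 1 to 4. For sporadic probes that the array did not detect, the share was 4.11% to 13.9%, and it was lower than for the detected ones on all 11 arrays. The gap was widest in mICSI BCB- replicate 4, with 16.4% against 4.11%, and smallest in ICSI BCB+ replicate 2, with 11.8% against 11.4%. The local background was the same for detected and undetected sporadic spots, with medians of 23 to 33 units that were equal on every array. The shares beside the brightest 1% of spots were 6.81% to 12.9% for detected and 9.25% to 10.2% for undetected sporadic spots. With detections beside another one left out, the difference in contribution was 86.3 probes for ICSI BCB- minus ICSI BCB+, -184 for mICSI BCB- minus ICSI BCB+ and -271 for mICSI BCB- minus ICSI BCB- blastocysts, and the quotient for sharing within groups was 1.21 (exact p = 0.0459 over the 11 arrays, from 1265 probes). The part of spot position in the other results was not tested.

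Probes with adjacent identifiers were not sporadic together more often than others. The probe with the next number was also sporadic for 10.03% of the 4345 sporadic probes that had a next number in use, and for 9.96% of all 43709 probes with one.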

How the data were processed

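RNA of single blastocysts was amplified by the authors, labelled with Cy3 and hybridised to 1-colour Agilent porcine arrays, 1 blastocyst per array. The authors deposited Feature Extraction 11.0.1.1 output. The processed signal is a linear intensity, background subtracted and not normalised between arrays, and the deposited flags are a score of 0 or 1 per spot. Control spots were left out, as were 42 of 43795 probes that any array flagged as outliers, and the flag for signals well above background defined detection. Amplification adds variation that 1 array per embryo cannot separate from differences between embryos, and the precision is limited by the number of arrays. Slides were read from the barcodes.

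Expected numbers came from the odds of detection of each array over all 43753 probes. Group means were compared by two-sided exact permutation tests over arrays, sharing by exact permutation of the labels, and correlations by 100000 resamples. The fit of all probes used limma 3.58.1 under R 4.3.3 over all 11 arrays after quantile normalisation, with p-values adjusted by Benjamini-Hochberg over 43753 probes. Python 3.11.15, numpy 2.4.6, pandas 2.3.3 and scipy 1.17.1 were used, and the scripts were tested on simulated data. Named probes were, for each array, the brightest probe detected on it alone, the 5 brightest 2-array probes by their weaker signal relative to the 75th percentile, and the brightest 2-array probe within each group. The probes, their rule and the tests were chosen with earlier results of these data known. Alternatives were other detection rules, scalings, floors and background corrections, slide or replicate number as a block, the methods' t-test, and leaving out each array. Normexp was planned on the mean and run on the median spot intensity. Alternatives restricted to clear detections, leaving out neighbouring spots or dividing by the expected number were added after the data were seen.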

Additional observations from a re-analysis of the deposited data

Results flagged for a closer look

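In 3 measures there was a blastocyst far from the rest of its group, judged by its gap to the nearest blastocyst over the range of the group (Dixon's criterion for groups of 4). In all, 26 such groups of values were examined, of which chance alone marks about 1 in 20, and groups of 3 were not examined. The number of probes detected in 1 blastocyst only was 258 in mICSI BCB- replicate 3, against 151, 141 and 137 in replicates 1, 2 and 4 (gap over range 0.884). The contribution of mICSI BCB- replicate 3 relative to its expected number was 1.03, against 0.704, 0.663 and 0.713 in replicates 1, 2 and 4 (gap over range 0.863). The highest sporadic signal was 5227 units in ICSI BCB+ replicate 1, the signal of EMPV1_21070, against 743, 1135 and 1036 units in replicates 2, 3 and 4 (gap over range 0.913).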

How the results depend on the processing

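Detection by the 99th percentile of the negative controls gave 2804 sporadic probes and the positive and significant flag 1781, in place of 4354, and leaving out 1 array gave 4358 to 4516. Under the negative control rule, the contribution of ICSI BCB- against ICSI BCB+ blastocysts turned to -262 and the sharing quotient for slides to 0.837, while that for groups was 1.70. The unscaled signals turned the signal difference of mICSI BCB- against ICSI BCB- to -0.44, and leaving out 1 array moved that of ICSI BCB- against ICSI BCB+ between -0.0045 and 0.18. The sharing quotient for groups had an unadjusted exact p under 0.05 and an adjusted one of 0.061. It kept its direction throughout, between 1.08 and 1.38 without 1 array, and its unadjusted p was over 0.05 in 8 alternatives, which were labels exchanged within slides (1.21), clear signals on both arrays (1.16) and leaving out any 1 of 6 arrays. All other comparisons of contribution kept their direction and none passed the adjusted threshold. For ICSI BCB- against ICSI BCB+, sporadic probes called numbered 83 with 75th percentile scaling, 2 with normexp, 16 with a floor of 10, 28 with the methods' t-test, and 43 to 101 without 1 array. Between mICSI BCB- and ICSI BCB+ they numbered 0 with normexp, 4 with a floor of 10, 46 with slide as a block, 10 with the methods' t-test, and 20 to 37 without 1 array. Between mICSI BCB- and ICSI BCB- they numbered 1 with normexp, 24 with a floor of 10, 22 with the methods' t-test, and 46 to 114 without 1 array. Apart from the leave-outs, the share of all probes called was not set beside these counts. They therefore do not show whether sporadic probes moved differently from all probes. Arrays of different groups with the same replicate number correlated at -0.083 to 0.081 (median 0.016). Those with different numbers correlated at -0.076 to 0.107 (median -0.0098), and 5 of 11 arrays correlated best with their own number. Whether the replicate numbers pair the arrays was not tested. With the replicate block the calls numbered 33, 29 and 33, again without the share of all probes, and the contributions differed by 93.7, -208 and -297. Except where its construction shows it, the cause of each change was not tested.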
